A study of Homo sapiens with 14 samples.

Results

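Splicing of 9 centromere and kinetochore genes was described in HEK293T cells with and without a mutation of the splicing factor SF3B1. The genes were CENPA, CENPC, CENPE, CENPF, CENPI, CENPK, CENPT, HJURP and BUB1. Every splice event of these genes with a mean of at least 10 junction reads was taken, whatever its type, which gave 138 of the 114349 events in the table. RNA-Seq was available for 3 SF3B1 K700K libraries (WT) and 3 SF3B1 K700E libraries (MT) of HEK293T, a human embryonic kidney line, in which the MT cells carry the substitution at the endogenous SF3B1 locus. The cells of these libraries had no treatment in their labels, and the labels do not say whether replicates came from separate cultures, so p-values measure the spread between libraries, which may be technical. DRIP-seq, a pulldown of DNA:RNA hybrids with the S9.6 antibody, was available for Nalm-6 cells, which derive from a B cell leukemia, as 2 libraries each of untreated WT, RNase H1-treated (RNH1) WT, untreated MT and RNH1-treated MT DNA. In each cell type the genotypes are isogenic lines, so an effect of the mutation and one of the line cannot be told apart. The splice table holds no expression values, so the identity of the cells and the SF3B1 allele could not be checked in it.

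Centromeres are marked by nucleosomes that hold the histone H3 variant CENP-A, which the chaperone HJURP delivers. CENP-C and CENP-T link this chromatin to the outer kinetochore, and CENP-I and CENP-K belong to the same inner network. CENP-E is a kinesin that moves chromosomes along microtubules, CENP-F is a large protein of the outer kinetochore, and BUB1 is a kinase of the spindle checkpoint. SF3B1 is a subunit of the U2 small nuclear ribonucleoprotein, which binds the branch site ahead of a 3′ splice site, and its cancer mutations are known for the use of 3′ splice sites a short way upstream of the usual ones.

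A few splice sites of events described below are shown from the hg38 reference on the transcribed strand. No difference between WT and MT in these events passed adjustment for multiple testing. In CENPK (ENSG00000123219.13), exon 3 of the MANE transcript CENPK-202 has a pair of 3′ splice sites 48 bp apart, at chr5:65554937-65554966 and chr5:65554889-65554918. The last 9 of these 48 bases are the first coding bases of that transcript, so the shorter form lacks the annotated start codon. Capitals mark the last 2 bases before each site.
CENPK upstream site: ataaatattttttgctttAGtttttcttat
CENPK downstream site: agcatatatcaatgaatcAGgaggatctag

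In CENPT (ENSG00000102901.13), the events with the smallest p concerned exon 6 of the MANE transcript CENPT-208, a coding exon of 88 bp at chr16:67832228-67832315. The stretch chr16:67832222-67832375 is shown with the exon in capitals. The annotation also holds 3′ splice sites 35 and 39 bp upstream of the exon, and each site follows an AG.
CENPT exon 6: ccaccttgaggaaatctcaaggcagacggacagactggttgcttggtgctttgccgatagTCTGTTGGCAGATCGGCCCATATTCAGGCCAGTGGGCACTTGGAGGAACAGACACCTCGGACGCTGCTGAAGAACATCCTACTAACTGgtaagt
CENPT site of exon 6: gcttggtgctttgccgatAGtctgttggca
CENPT site 35 bp upstream: ttgaggaaatctcaaggcAGacggacagac
CENPT site 39 bp upstream: caccttgaggaaatctcaAGgcagacggac

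In CENPE (ENSG00000138778.14), 2 sites at the start of MANE exon 39 lie 3 bp apart, in the stretch chr4:103138440-103138472. Capitals mark the AG of each site.
CENPE tandem sites: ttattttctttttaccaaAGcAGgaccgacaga

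The inclusion level is the fraction of the longer or inclusion form among the 2 forms that an event compares, computed by the authors from junction reads per length of each form. An exon can therefore have different levels in events that set it against different junctions. Levels were compared by limma, with Benjamini-Hochberg adjustment over all 83581 events that could be tested, and an event was called at an adjusted p under 0.05 and a difference above 0.1. Of the 138 events, 121 could be tested and 17 had the same level in every library, at full inclusion in 16 of them. None of the 121 was called (0 events), against 26 of all events tested, which is 0.0311%. The lowest adjusted p among the 9 genes was 0.338. At an unadjusted limma p under 0.05 there were 20 events, or 16.5% of the 121, against 4.47% of all events tested. Of these 20, 8 were higher and 12 were lower in MT, and 15 differed by no more than 0.1. Several of the 20 are the same reads counted in more than one event, and they rest on 13 distinct junctions. With a single event for each junction there were 12 of 93 events, or 12.9%, against 4.31% of all.

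All MT libraries lay above all WT libraries in 3 of the 121 events, against 2.32% of all events tested. They lay below them in 10 of the 121, against 3.15%. Of the 3, 2 belonged to HJURP and share the junction that skips exons 4 and 5. Of the 10, 7 belonged to CENPT, and 5 of those share the junction that skips exon 6. The median difference between MT and WT was 0.00033 over the 121 events and −0.002 over all events tested, and the median of its size was 0.0217 and 0.0137. By gene, events with an unadjusted limma p under 0.05 were 7 of 41 in CENPT, 3 of 21 in CENPK, 3 of 14 in CENPI, 3 of 14 in CENPE, 3 of 7 in HJURP and 1 of 11 in CENPF. There were 0 of 8 in BUB1, 0 of 3 in CENPA and 0 of 2 in CENPC. The genes were chosen with results of these data known, so these counts are a description.

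**Figure D1:**
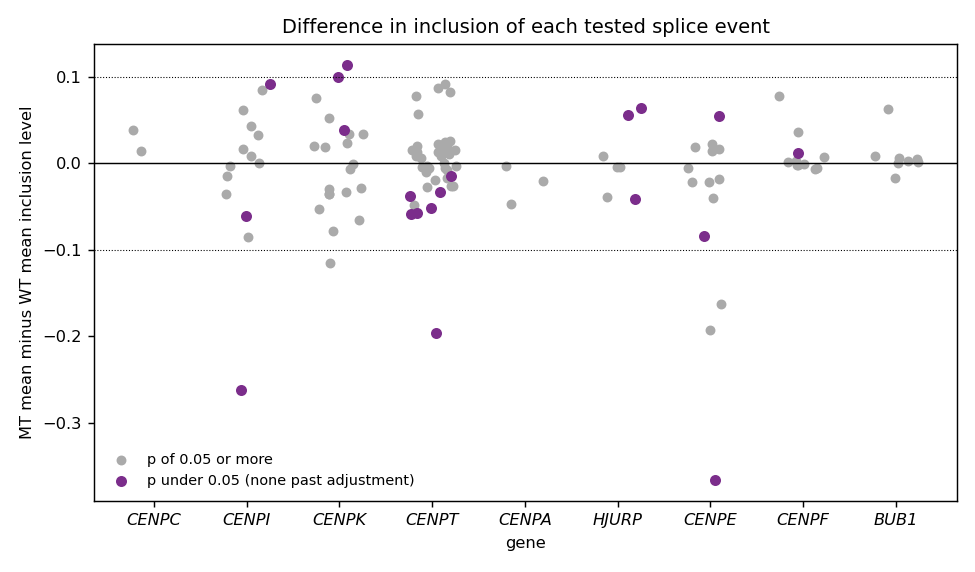
Each point is a tested splice event, with the gene on the x axis and the MT mean minus the WT mean inclusion level on the y axis, and dotted lines mark differences of 0.1 to each side. Of 121 events, 20 have an unadjusted p under 0.05 (purple), and the lowest point is a CENPE event at −0.366.

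The junction reads behind the events differed between libraries for some genes. Reads were summed over the 68761 events with a mean of at least 10 reads whose reads could be matched in all 6 libraries. Events with unmatched reads were left out, so only 5 of the 12 CENPF events and 5 of the 14 BUB1 events entered. CENPE had 50.3, 287.0 and 392.8 junction reads per 1000000 in WT 1, 2 and 3. In MT 1, 2 and 3 it had 112.5, 230.9 and 230.5. CENPF had 97.2, 452.1 and 368.2 in WT and 216.7, 483.0 and 266.8 in MT. WT 1 was the lowest library for both genes, followed by MT 1. WT 1 and MT 1 were also the lowest for CENPT, at 415.3 and 328.0, with 602.9 to 783.2 in the other libraries. CENPI ranged only from 144.9 to 171.9, and CENPC, from 16.4 to 35.9, and CENPA, from 18.1 to 42.3, had the fewest. In 17 of the 121 events at least 1 library had fewer than 10 reads, 4 of the 20 with an unadjusted limma p under 0.05 among them. The part of these depths in the results was not tested. Numbers of MT libraries follow the order of the table's columns and are not tied to replicates.

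**Figure D2:**
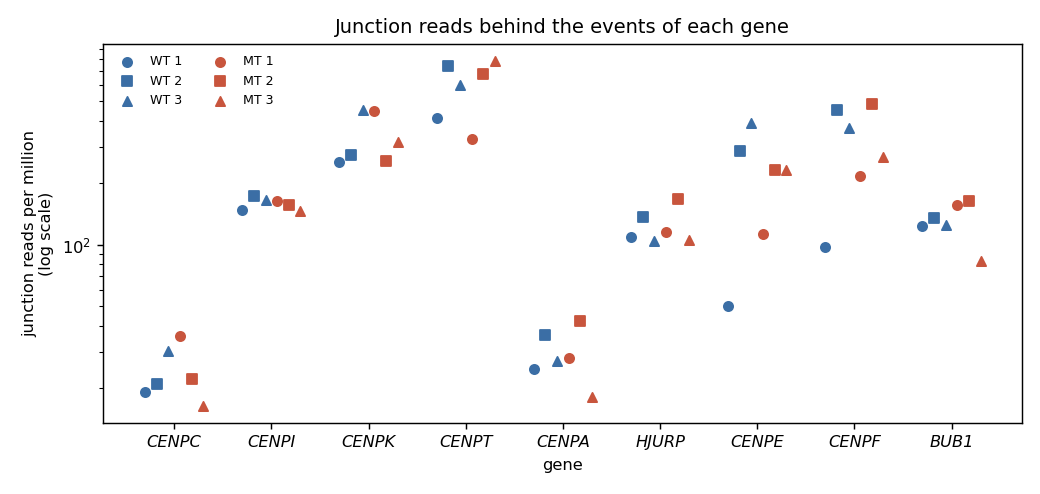
Junction reads per 1000000 (log scale) summed over the events of each gene whose reads were matched in all 6 libraries, with WT libraries in blue and MT libraries in red. WT 1 (blue circle) lies lowest for CENPE and CENPF, at 50.3 and 97.2.

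The inner centromere network gave the event with the smallest p. In CENPK, the longer form of exon 3, spliced to one of 2 neighbouring 5′ sites of the exon before it, had levels of 0.852, 0.852 and 0.932 in WT against 1, 1 and 0.978 in MT. Every MT library was above every WT library. The WT mean was 0.879 ± 0.0462 (SD, n = 3) and the MT mean 0.993 ± 0.0127 (SD, n = 3), a difference of 0.114 that did not pass adjustment (limma unadjusted p = 0.000302, adjusted p = 0.338). The shorter form, which uses the downstream site shown above, was seen in 6, 6 and 4 reads in WT and in 0, 0 and 1 read in MT, of 34 to 91 reads in a library. The authors' means of these reads were 5.33 in WT and 0.5 over all 6 MT values listed in the table. When the same sites were joined to the other 5′ site, levels were 0.931, 1 and 0.885 in WT against 1, 1 and 0.918 in MT. These groups overlapped (difference 0.034, limma adjusted p = 0.856). The longer site is used by 6 and the shorter by 2 of the 17 annotated transcripts.

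Other CENPK events differed less clearly. Exon 8, a coding exon of 99 bp at chr5:65528919-65529017, was included at 0.906, 0.963 and 0.991 in WT against 0.987, 1 and 0.988 in MT (difference 0.0383, limma unadjusted p = 0.0312). A form of it 131 bp long was included at 0.793, 0.833 and 0.973 in WT against 0.967, 1 and 0.933 in MT (difference 0.1, limma unadjusted p = 0.0362). In both, the WT and MT libraries overlapped, and both count the same skipping reads, 6, 3 and 1 in WT and 1, 0 and 1 in MT. The authors' means of these reads were 3.33 in WT and 3 over all 6 MT values listed. Most of the MT skipping reads were thus in values without a column of their own, which the difference leaves out. The best-read event at an intermediate level weighed exon 5 against exon 6, at 0.524, 0.3 and 0.395 in WT against 0.537, 0.153 and 0.184 in MT. Its difference of −0.115 was smaller than the SD of the MT libraries, 0.213 (limma adjusted p = 0.856).

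In CENPT, exon 6 was included in every read of the WT libraries and skipped in some reads of every MT library. Its levels were 1, 1 and 1 in WT against 0.974, 0.952 and 0.961 in MT, so no MT library reached a WT library. The skipping junction, from the end of exon 5 to the start of exon 7, had 0, 0 and 0 reads in WT and 1, 4 and 4 reads in MT, beside 108, 174 and 116 inclusion reads in WT and 74, 155 and 191 in MT. The 0 skipping reads among 398 reads in WT allow, at 3 reads and per length of each form as in the levels, a skipped share of up to 1.45%, which covers counting error only. The MT mean was 0.962 ± 0.0111 (SD, n = 3), against 1 ± 0 (SD, n = 3) for WT, a difference of −0.0377 that did not pass adjustment (limma unadjusted p = 0.001, adjusted p = 0.473). Over all 6 MT values listed, the authors' mean of skipping reads was 2.67, against 0 in WT.

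**Figure D3:**
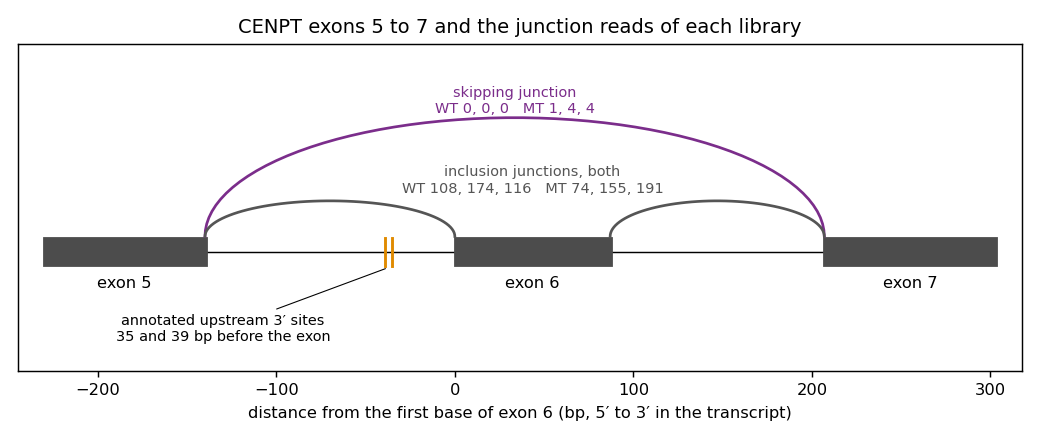
Exons 5 to 7 of CENPT drawn to scale against the distance from the first base of exon 6 in bp, with the junction reads of WT 1 to 3 and MT 1 to 3 on each arc. The skipping junction has 0 reads in each WT library and 1, 4 and 4 reads in the MT libraries.

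The same 9 skipping reads entered 4 more CENPT events. The exon starting at the site 35 bp upstream, 123 bp long, had levels of 0.959, 0.921 and 0.944 in MT, and the one starting 39 bp upstream, 127 bp long, had 0.962, 0.921 and 0.946, with 1 in every WT library for both. The first had the smallest p in the gene (difference −0.0587, limma unadjusted p = 0.000598, adjusted p = 0.417). Retention of the whole stretch between exons 5 and 7, a form of few reads, had 0.857, 0.742 and 0.814 in MT and 1 in every WT library, a difference of −0.196 (limma adjusted p = 0.463) from 7 to 39 reads in a library. These differences are not separate observations, since each counts the same skipping reads against other inclusion reads. For use of the upstream sites themselves, the difference was smaller than the spread between libraries. The site 35 bp upstream had levels of 0.143, 0.071 and 0.117 in WT against 0.229, 0.045 and 0.105 in MT (limma adjusted p = 0.982), and the groups overlapped.

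In the annotation, 3 of 35 CENPT transcripts have the skipping junction. Leaving exon 6 out of the MANE reading frame removes 88 bases, not a multiple of 3, and brings a stop codon in exon 7, the codon numbered 74, in a transcript of 16 exons. A further pair of CENPT events had MT below WT without overlap by small amounts. The full length of exon 8, rather than a 3′ site 50 bp inside it, was used at levels of 1, 0.992 and 0.989 in WT against 0.923, 0.975 and 0.985 in MT (difference −0.0327), and the full length of exon 12, rather than a 5′ site within it, at 1, 0.994 and 1 in WT against 0.986, 0.975 and 0.99 in MT (difference −0.0143). The best-read CENPT event at an intermediate level, exon 8 against exon 9, had levels in WT of 0.786, 0.743 and 0.775, and in MT of 0.74, 0.74 and 0.745, which overlap (limma adjusted p = 0.856).

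**Figure D4:**
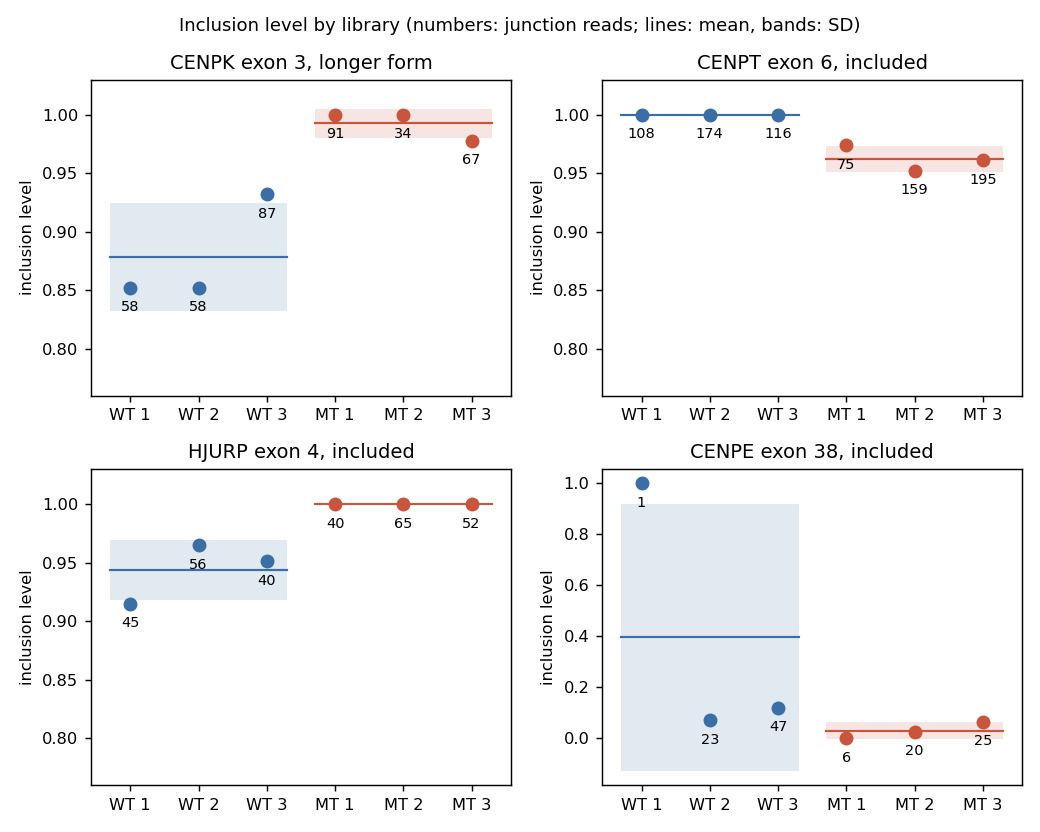
Inclusion level of 4 events in each library, with WT in blue and MT in red, junction reads beside each point, lines at group means and bands of 1 SD (n = 3). The WT and MT libraries do not overlap in any of the 4 panels, and the CENPE level of WT 1 rests on 1 read.

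CENPI (ENSG00000102384.14) had 3 events with an unadjusted limma p under 0.05. The smallest p belonged to an exon of 257 bp that the MANE transcript lacks, at chrX:101099809-101100065, with levels of 1, 1 and 1 in WT against 0.5, 1 and 0.714 in MT, which overlap (difference −0.262, limma adjusted p = 0.856). It rested on 6 to 17 reads in a library, and without MT 1 the difference was −0.143. These levels weigh the exon only against the junction that leaves it out together with exon 2. Against the junction from exon 2 onward, the same exon had levels in WT of 0.323, 0.326 and 0.493, and in MT of 0.269, 0.305 and 0.311, from 33 to 62 reads. There the MT libraries lay below WT without overlap (difference −0.0857, limma unadjusted p = 0.275, adjusted p = 0.856). Exon 2, at chrX:101098444-101098539, was skipped through the same junction, with levels of 1 in every WT library and 0.87, 1 and 0.947 in MT. The junction had 0 reads in WT and 3, 0 and 1 reads in MT. Over all 6 MT values listed, the authors' mean of these reads was 0.667, against 0 in WT, so the reads came only from values used here. Exon 21, 42 coding bp at chrX:101161528-101161569, was included at 0.933, 0.903 and 0.781 in WT against 0.966, 1 and 0.928 in MT (difference 0.0923, limma unadjusted p = 0.0325), with overlap. Reads that skip exon 21 numbered 2, 4 and 7 for WT, against 1, 0 and 3 for the MT values used. Averaged by the authors over all 6 MT values listed, they came to 2.67, beside 4.33 for WT. Values without a column thus held most of the MT skipping reads, and the difference leaves these out. The best-read event at an intermediate level, exon 15 against exon 16, had a difference of 0.0427 (limma adjusted p = 0.856).

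CENPC (ENSG00000145241.11) had 2 testable events. An exon of 353 bp that is not in the MANE transcript was at 0, 0 and 0 in WT against 0.019, 0 and 0.023 in MT, from 36 to 72 reads, and an alternative 5′ site 118 bp downstream of the usual one was at 0.05, 0.014 and 0.038 in WT against 0.119, 0.1 and 0 in MT. Both overlapped between WT and MT, with limma adjusted p of 0.856 and 0.905.

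For CENP-A itself no event had an unadjusted limma p under 0.05 (0 of 3). In CENPA (ENSG00000115163.15), exon 3, 78 coding bp at chr2:26792756-26792833, was included at 0.773, 0.919 and 0.902 in WT against 0.816, 0.982 and 0.788 in MT, means of 0.865 ± 0.0798 and 0.862 ± 0.105 (SD, n = 3) that differed by less than the spread between libraries (limma adjusted p = 0.971). A 3′ site 254 bp upstream of that exon was used at 0, 0.047 and 0.133 in WT against 0, 0.02 and 0.019 in MT (limma adjusted p = 0.856), again with overlap.

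In HJURP (ENSG00000123485.12), the chaperone, exon 4, 97 coding bp at chr2:233849763-233849859, was included at 0.915, 0.965 and 0.951 in WT and at 1 in every MT library, without overlap. The difference was 0.0563 (limma unadjusted p = 0.00639, adjusted p = 0.784). The junction counted as skipping runs from exon 3 to exon 6 and leaves out exons 4 and 5 together, 162 bases in frame, as 1 of 9 annotated transcripts does. It had 2, 1 and 1 reads in WT and 0, 0 and 0 in MT, of 40 to 65 reads in a library, and the 0 reads among 157 in MT allow a skipped share of up to 3.68% on the same scale. The authors' means of these reads over all listed values were 1.33 in WT and 1 in MT, so the MT values without a column of their own held such reads. Skipping of exon 5 alone went the other way, with inclusion at 1, 1 and 0.927 in WT against 0.952, 0.924 and 0.928 in MT, and these overlapped (difference −0.041, limma unadjusted p = 0.0269). The balance of exons 4 and 5 differed by −0.039 (limma adjusted p = 0.856).

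Among the microtubule-binding proteins, CENPE gave the largest difference of the 9 genes, and it rested on 1 read. Exon 38, 291 coding bp at chr4:103139789-103140079, had levels of 1, 0.07 and 0.119 in WT against 0, 0.026 and 0.064 in MT. The WT 1 value came from 1 read, and the other libraries had 6 to 47. The difference was −0.366 with all libraries (limma unadjusted p = 0.00913, adjusted p = 0.84) and −0.0645 without WT 1 (limma unadjusted p = 0.205). In the 5 libraries with more than 1 read, exon 38, which the MANE transcript holds, was skipped in most reads. The skipping junction ends at the downstream of the tandem sites shown above. The upstream site was chosen, among reads that skip exon 38, at 1, 0.407 and 0.426 in WT against 0.449, 0.481 and 0.416 in MT (limma adjusted p = 0.856), and WT 1 was again 1 read. Exon 34, 159 coding bp at chr4:103143248-103143406, was included at 0.875, 0.953 and 0.926 in WT against 1, 0.934 and 0.985 in MT, with overlap (difference 0.055, limma adjusted p = 0.856). By the authors' averages, skipping of exon 34 came to 3.33 reads for WT, against 3 over all 6 MT values listed. The MT values used held 0, 4 and 1 such reads, so most lay in values that the difference leaves out.

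CENPF (ENSG00000117724.15) was the best covered, with up to 664.5 reads per event on average. Exon 15, 177 coding bp at chr1:214651710-214651886, was included at 0.983, 0.991 and 0.982 in WT against 1, 1 and 0.991 in MT, a difference of 0.0117 (limma unadjusted p = 0.0182, adjusted p = 0.856). The groups met at 0.991, in MT 3 and WT 2. For the balance of exons 2 and 3, WT levels were 0.361, 0.369 and 0.322 and MT levels 0.35, 0.33 and 0.355, which differed by less than the spread between libraries. Of the 16 tested events of the mutually exclusive type, 11 set exons against each other that the MANE transcript holds together. Their levels thus compare junction reads at exons of the same transcript. These exons are neighbours except in a CENPK event that sets exon 6 against exon 2.

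In BUB1 (ENSG00000169679.15), 6 events were at full inclusion in every library. Of the 8 tested, 7 were higher in MT by any amount, beside 36674 of the 83581 events tested in all genes. The median difference of the 8 was 0.004, and some rest on 1 or a few reads. The event with both the smallest p and the most reads at an intermediate level was the balance of exons 10 and 11, at 0.591, 0.681 and 0.673 in WT against 0.659, 0.711 and 0.762 in MT. These overlapped, and the difference was 0.0623 (limma adjusted p = 0.856).

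Alternative 3′ splice sites, the type for which SF3B1 mutations are best known, made up 13 of the 121 events, with sites from 3 to 460 bp apart. An unadjusted limma p under 0.05 was found for 2 of the 13, or 15.4%, against 6.26% of the 5351 events of this type in all genes. In 3 of them, all in CENPT, the sites lay 10 to 30 bp apart, and none of these had an unadjusted limma p under 0.05 (0 of 3), with a difference of at most 0.0567. The largest was for the 27 bp stretch chr16:67828579-67828605, used at 0.119, 0.057 and 0.017 in WT against 0.182, 0.084 and 0.097 in MT, and the groups overlapped.

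A wider list of 50 genes of the centromere and kinetochore was read from the same fit, and 49 had a tested event. None of their 457 events was called (0 events, limma with Benjamini-Hochberg adjustment), beside 0.0311% of all events tested. An unadjusted p under 0.05 was found for 17, or 3.72%, 11 higher and 6 lower in MT, which is near the 4.47% of all events tested. By role, these were 6 of 74 events in the constitutive centromere network, 0 of 23 in CENP-A loading, 5 of 97 in the KMN network, which binds microtubules, 4 of 104 in the spindle checkpoint, 0 of 60 in the chromosomal passenger complex and cohesion protection, and 2 of 99 in microtubule coupling. The median difference over the list was −0.002, equal to that over all events.

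The smallest p in that list belonged to NSL1, a subunit of the Mis12 complex, whose exon at chr1:212739534-212739601 was included at 0.916, 0.93 and 0.957 in WT and at 1 in every MT library (difference 0.0657, limma adjusted p = 0.343). Next was SKA3, of the Ska complex that tracks microtubules, whose exon at chr13:21172620-21172681 was at 0.897, 0.634 and 0.952 in WT and 1 in every MT library, from 13 to 34 reads (limma adjusted p = 0.596). CENPX, a histone-fold protein, had an exon at chr17:82019858-82019909 at 1, 0.99 and 1 in WT against 0.941, 0.96 and 0.975 in MT (limma adjusted p = 0.803). In all 3, which were picked for the smallest p, the WT and MT libraries did not overlap. Over the 457 events of the list, MT lay above WT without overlap in 13 and below in 10. Of all events tested, 2.32% lay above and 3.15% below.

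DRIP-seq peaks over the 9 genes numbered 22 and 22 in the untreated WT libraries of Nalm-6 and 41 and 44 in the untreated MT libraries. Neither MT library overlapped WT, the MT mean was 1.93 times the WT mean, and the difference of 20.5 peaks had a two-sided exact permutation p of 0.333, the smallest that 2 libraries against 2 can give in this test. Relative to all peaks of a library, the MT libraries were not above WT, as WT had 17.8 and 16.8 peaks over these genes per 100000 peaks, and MT had 16.1 and 14.8. Peaks absent after RNH1, meaning no overlap with the treated library of equal genotype and number, came to 16 and 18 for WT and 19 and 25 for MT. Over the genome, such peaks numbered 101372 and 86247 for WT and 124689 and 151753 for MT. After RNH1 treatment 6 and 11 peaks over these genes were found for WT, and 35 and 32 for MT. Per 100000 peaks of the treated library, these were 17.2 and 14.2 for WT and 17.3 and 16.1 for MT, which overlap.

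Peak counts of single genes are not set against gene length or the total of a library. Untreated WT libraries had 123720 and 131096 peaks in all, and untreated MT libraries 254170 and 296533. Of all protein-coding genes, 52.5% and 54.5% had a peak in untreated WT, and 64.3% and 65.4% in untreated MT. CENPE, the longest of these genes at 93097 bp, had 7 and 8 peaks in untreated WT and 12 and 13 in untreated MT, and CENPC, with 76742 bp, had 4 in each WT library and 8 and 10 in MT. By the share of the gene under peaks, CENPA was above CENPE in all 4 untreated libraries, with 5.37% and 7.33% in WT and 8.74% and 8.43% in MT, against 2.94%, 3.95%, 6.42% and 6.39% for CENPE. For CENPF, untreated WT had 0 and 1 and untreated MT 7 and 5, and at its start, within 3 kb, the MT libraries had 2 peaks each with highest fold enrichments of 6.85 and 9.2. The RNH1-treated MT libraries had 1 and 2 peaks there, with 13.5 and 11.5. HJURP had 0 peaks in every WT library and 2 in each untreated MT library, and 0 in RNH1-treated MT DNA. CENPT, the gene of the skipped exon, had 0 peaks in all libraries but untreated MT 2, which had 1. Among the 18 member events chosen by the naming rule, the alternative stretch of the CENPA exon 3 events alone had a peak in untreated DNA, in both untreated MT libraries with fold enrichments of 3.48 and 3.43.

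**Figure D5:**
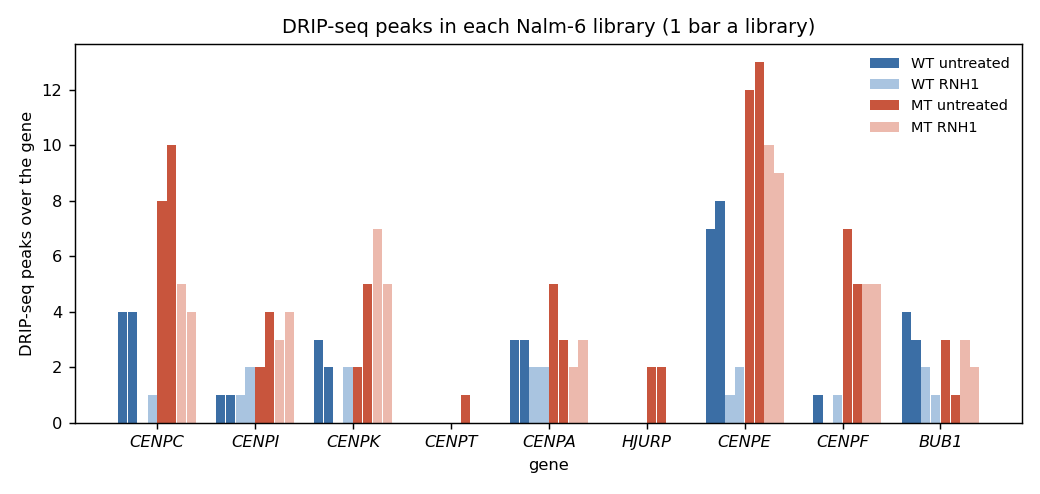
DRIP-seq peaks over each gene, 1 bar per Nalm-6 library and 2 libraries per group, with untreated DNA in full and RNH1-treated DNA in pale colours. Counts are not set against gene length or the total of a library, and CENPE, the longest gene, has 7 and 8 in untreated WT and 12 and 13 in untreated MT.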

How the data were processed

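RNA-Seq of HEK293T and DRIP-seq of Nalm-6 were analysed from processed files on GRCh38. The authors built splice events with the rMATS model and deposited, per library, the inclusion level as a fraction with 3 decimals, with group means of junction reads. The table lists 6 MT values per event, and only the 1st, 2nd and 6th have a column. Those were used as MT 1, 2 and 3, although no source ties them to particular MT samples. Its p-value, adjusted p-value and difference columns, the authors' own comparison, were not used. Reads per library were taken from count lists that returned the level column, for all 6 libraries in 89049 of 114349 events and 118 of 138 here, since longer lists run together. A count test on these matched reads was not run.

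After transformation to the arcsine of their square root, levels were compared with limma 3.58.1 in R 4.3.3, with a variance trend on mean reads, over events with a level in all 6 libraries, at least 10 reads on average and varying levels. The script was tested on simulated data. The authors called DRIP-seq peaks with MACS2 per library and deposited the fold enrichment (a ratio) and the −log10 q-value of each. Gene positions came from GENCODE 44, which holds 272 of the 276 exon boundaries. Events named were every called event, those without overlap and a difference of at least 0.1, and for each gene the one with the smallest p and the best-read one between 0.05 and 0.95. The genes and lists were chosen with earlier results of these data known. Depth limits precision. Over the 68761 events matched in all 6 libraries with a mean of at least 10 reads, junction reads summed to 3927285 to 5259195 in a library. Over all events matched in a given library, they summed to 5364717 to 12602478.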

Additional observations from a re-analysis of the deposited data

How the results depend on the processing

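No event of the 9 genes was called under any setting tried, with limma and Benjamini-Hochberg adjustment. Over all genes, 26 events were called, against 0 with a logit transform, 0 without a variance trend and 12 with the number in the column name as a replicate block. Leaving out 1 library gave 3 to 13. Of events of the 9 genes, 20 of 121 had an unadjusted limma p under 0.05, beside 4.47% of all events tested. There were 13 of 118 with the logit (3.85% of all), 12 of 121 without the trend (3.83%) and 19 of 121 with the replicate block (4.72%). There were 12 of 93 with a single event per junction (4.31%) and 17 of 104 with at least 10 reads in every library (4.41%). The last pair of settings was chosen after seeing the data. Leaving out 1 library gave 12 to 18, the lowest without MT 2, beside 3.31% to 6.09% of all events tested. Same-numbered WT and MT libraries correlated by 0.1, 0.097 and 0.027 in their deviations, above the other pairs, at −0.103 to 0.012. The main fit did not take the numbers as pairs, and no source ties the MT numbers to replicates. Whether same-numbered libraries share a batch was not tested.

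Among named differences, leave-one-out changed the sign of 3 small ones, with ranges of −0.0085 to 0.071 for CENPI exons 15 and 16 (negative without WT 1), −0.0627 to 0.0343 for CENPA exon 3 and −0.02 to 0.0035 for CENPF exons 2 and 3. That of CENPE exon 38 ran from −0.53 to −0.0645, the last without WT 1. Other uncalled differences moved by over 1.5 times without a change of sign, from −0.393 to −0.143 for the 257 bp CENPI exon, −0.238 to −0.0458 for CENPK exons 5 and 6, 0.0337 to 0.0882 for BUB1 exons 10 and 11, 0.0335 to 0.0745 for CENPE exon 34, −0.077 to −0.0105 for the CENPA 3′ site, 0.016 to 0.0755 for the CENPC 5′ site, −0.0388 to −0.0173 for CENPT exons 8 and 9 and −0.0552 to −0.0152 for HJURP exons 4 and 5. The 353 bp CENPC exon ran from 0.0095 to 0.021. The differences of CENPK exon 3 and CENPT ran from 0.101 to 0.141 and, for the 123 bp form of exon 6, from −0.0675 to −0.0485. The cause was not tested.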
